A study of Mus musculus with 20 samples.

Results

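The 9 genes described here carry glucose across the proximal tubule cell of the kidney or make it there. They are Slc5a1, Slc5a2, Slc2a1, Slc2a2, G6pc, Pck1, Fbp1, Pcx and Slc37a4, taken by symbol from a deposited table of 25638 genes. All 9 passed the filter on low counts that left 14858 genes for testing. The counts are from polyadenylated RNA of whole kidneys of 20 male C57BL/6J mice, an inbred laboratory strain, 6 to 8 weeks old, in 4 groups of 5. Cisplatin mice received phosphate-buffered saline (PBS) by mouth and 10 mg/kg cisplatin, a platinum anticancer drug known for its toxicity to the proximal tubule, by intraperitoneal injection. Mice of the 2 dose groups received the same cisplatin and 7-HCG by mouth (the glucuronide of a plant coumarin, in full 7-hydroxycoumarin-β-D-glucuronide) at 15 or 30 mg/kg. Control mice received PBS by mouth and a saline injection. PBS or 7-HCG was given each day for 5 days with the injection on day 3, and kidneys were taken 72 h after it. No group received 7-HCG without cisplatin, so a dose group set against control differs in both treatments. The labels call the mice biological replicates and do not say which shared a cage or a day.

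Glucose filtered at the glomerulus is taken up from the tubular fluid by sodium-glucose cotransporters of the apical membrane, SGLT2 (Slc5a2) in the early proximal tubule and SGLT1 (Slc5a1) further along. It leaves the cell on the blood side through the facilitative transporters GLUT2 (Slc2a2), in the early segments, and GLUT1 (Slc2a1), which is found along much of the nephron and in other kidney cells. The same cells make glucose from lactate, glutamine and glycerol. Pyruvate carboxylase (Pcx) and phosphoenolpyruvate carboxykinase (Pck1) open that route, fructose-1,6-bisphosphatase (Fbp1) acts within it, and glucose-6-phosphatase (G6pc), supplied with substrate by the glucose-6-phosphate translocase (Slc37a4), closes it in the endoplasmic reticulum.

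The promoters of 4 genes of glucose production are shown because these genes were called in different comparisons below: Pck1 was the only member called for cisplatin against control, and G6pc, Fbp1 and Slc37a4 were called for both doses against cisplatin. Sequences are from RefSeq (GRCm38.p6), 5′ to 3′ on the gene's strand, and hold those of the 250 bases before the RefSeq start that also lie before the gene start in the deposited table. Capitals mark 3 short motifs searched on both strands. ACGTCA is the core of the cyclic AMP response element, GTTAAT a core element bound by hepatocyte nuclear factor 1 proteins, and AGGTCA an element bound by nuclear receptors. On the other strand the first reads TGACGT, the second ATTAAC and the third TGACCT, and no match of one overlapped a match of another. The Pck1 stretch is chr2:173152823-173153047 on the plus strand, the G6pc stretch chr11:101367466-101367560 on the plus strand, the Fbp1 stretch chr13:62888283-62888532 on the minus strand and the Slc37a4 stretch chr9:44396696-44396851 on the plus strand.
Pck1: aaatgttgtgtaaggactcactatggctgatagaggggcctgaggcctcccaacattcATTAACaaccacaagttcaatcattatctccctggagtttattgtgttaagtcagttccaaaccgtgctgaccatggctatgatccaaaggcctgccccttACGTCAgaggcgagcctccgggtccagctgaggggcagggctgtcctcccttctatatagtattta
G6pc: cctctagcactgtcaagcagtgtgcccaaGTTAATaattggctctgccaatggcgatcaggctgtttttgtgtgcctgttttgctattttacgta
Fbp1: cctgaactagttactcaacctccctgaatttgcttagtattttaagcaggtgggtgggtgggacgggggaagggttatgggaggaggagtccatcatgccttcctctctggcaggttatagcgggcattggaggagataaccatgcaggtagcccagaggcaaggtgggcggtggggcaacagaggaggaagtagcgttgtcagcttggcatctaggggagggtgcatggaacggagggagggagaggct
Slc37a4: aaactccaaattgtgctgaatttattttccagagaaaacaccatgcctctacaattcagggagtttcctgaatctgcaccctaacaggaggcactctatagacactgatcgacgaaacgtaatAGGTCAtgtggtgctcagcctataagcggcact
Of the 9 members, 8 had a promoter in the RefSeq table, with 11 windows of 250 bases. ACGTCA occurred in the windows of 2 members, Pck1 (91 to 86 bases before the start) and Slc37a4 (61 to 56 bases before the start of its first window), and in 6.5% of 32536 mouse promoter windows of this length. GTTAAT occurred in G6pc, 221 to 216 bases before the start, and in Pck1, 192 to 187 bases before it, and in 6.47% of all windows. AGGTCA occurred in 3 members, G6pc, Slc37a4 and Slc2a2, and in 14% of all windows. Matches closer to the start than the printed stretch are counted but not shown. None of Fbp1, Pcx, Slc5a1 and Slc2a1 held any of the 3 motifs in these windows, and Slc5a2 had no window. The part of these motifs in the calls was not tested.

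Levels are CPM, read counts relative to library sizes scaled by the trimmed mean of M values (TMM), and ± after a mean is the SD of 5 mice. Values per mouse are always given in the order of the title numbers: replicates 2, 3, 6, 9 and 10 for cisplatin, 1, 2, 3, 5 and 7 for 15 mg/kg, 1, 5, 6, 7 and 8 for 30 mg/kg, and 1, 2, 5, 7 and 8 for control. A gene is called at a Benjamini-Hochberg adjusted p below 0.05 over the 14858 genes in 1 edgeR quasi-likelihood fit of all 20 libraries. Beside a log2 fold change, ± gives the standard error. Library totals ran from 10714532 to 49602115 counts. The mRNAs of the mitochondrial genome took 77.7% and 70.6% of the counts in cisplatin replicates 9 and 10, 16.6% to 27.3% in the other cisplatin libraries, 3.04% to 7.38% at 15 mg/kg, 5.12% to 8.01% at 30 mg/kg and 24.6% to 45.5% in control. Summed adipose markers were 583 and 2578 CPM in control replicates 2 and 5, 309 CPM in 15 mg/kg replicate 5 and 340 CPM in 30 mg/kg replicate 6, against 60.2 to 159 CPM in the other 16 libraries. For the 9 members, the results below are given without these libraries where that changes a call. Scaling moves the direction of calls: with library totals in place of TMM, the share of calls that were higher was 23.4% in place of 62.7% for cisplatin against control, 75.1% in place of 50.4% for 15 mg/kg against cisplatin, 86.3% in place of 52.6% for 30 mg/kg against cisplatin and 39.2% in place of 50.8% for 15 mg/kg against control. For 30 mg/kg against control, DESeq2 size factors gave 44.1% in place of 54.5%, and for 30 mg/kg against cisplatin they gave 43.5%.

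In kidneys given cisplatin alone, Pck1 was the single member called against control, of 9, while 13.4% of all tested genes were called in either direction and 8.41% were called higher. It rose 3.96-fold. The other 8 members were not called, with log2 fold changes between -0.30 for Pcx and 0.54 for Slc2a1, and the median over the members was 0.10 against -0.01 over all genes. In bulk tissue, fewer cells of a type and less RNA per cell cannot be told apart. Proximal tubule markers, a list of 10, summed to 5824 to 21809 CPM in cisplatin and 16188 to 53330 CPM in control, and 4 of the 10 were called lower, or 0 without cisplatin replicates 9 and 10. Their part in the members' values was not tested.

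With 7-HCG on top of cisplatin, 4 of the 5 members of glucose production, all but Pck1, were called higher than in cisplatin alone at both doses. At 15 mg/kg, 6 of 9 members were called higher and none lower, against 18.9% of all genes called higher and 37.5% called in either direction. At 30 mg/kg, 6 of 9 were again called higher and none lower, against 14.7% and 27.9% of all genes. They were Fbp1, Pcx, Slc37a4, G6pc, Slc2a2 and Slc5a1 at both doses. The median log2 fold change over the members was 1.10 at 15 mg/kg and 1.13 at 30 mg/kg, against -0.05 and 0.00 over all genes. Groups did not overlap, with 7-HCG higher, for 3 members at 15 mg/kg (10.6% of all genes) and for 5 members at 30 mg/kg (11% of all genes). Proximal tubule markers moved with them: they summed to 29873 to 57310 CPM at 15 mg/kg and 20874 to 40035 CPM at 30 mg/kg, against 5824 to 21809 CPM in cisplatin, and 9 and 8 of the 10 were called higher, or 7 and 4 without cisplatin replicates 9 and 10. Without those libraries 5 members were called at each dose: Slc5a1 and Slc2a2 lost their calls and Slc5a2 gained one. Over the alternatives, all genes called ran from 1329 to 6195 at 15 mg/kg and from 310 to 4870 at 30 mg/kg. A loss among the members therefore cannot be told from a general loss of calls. The proximal tubule's part in these differences was not tested.

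**Figure D1:**
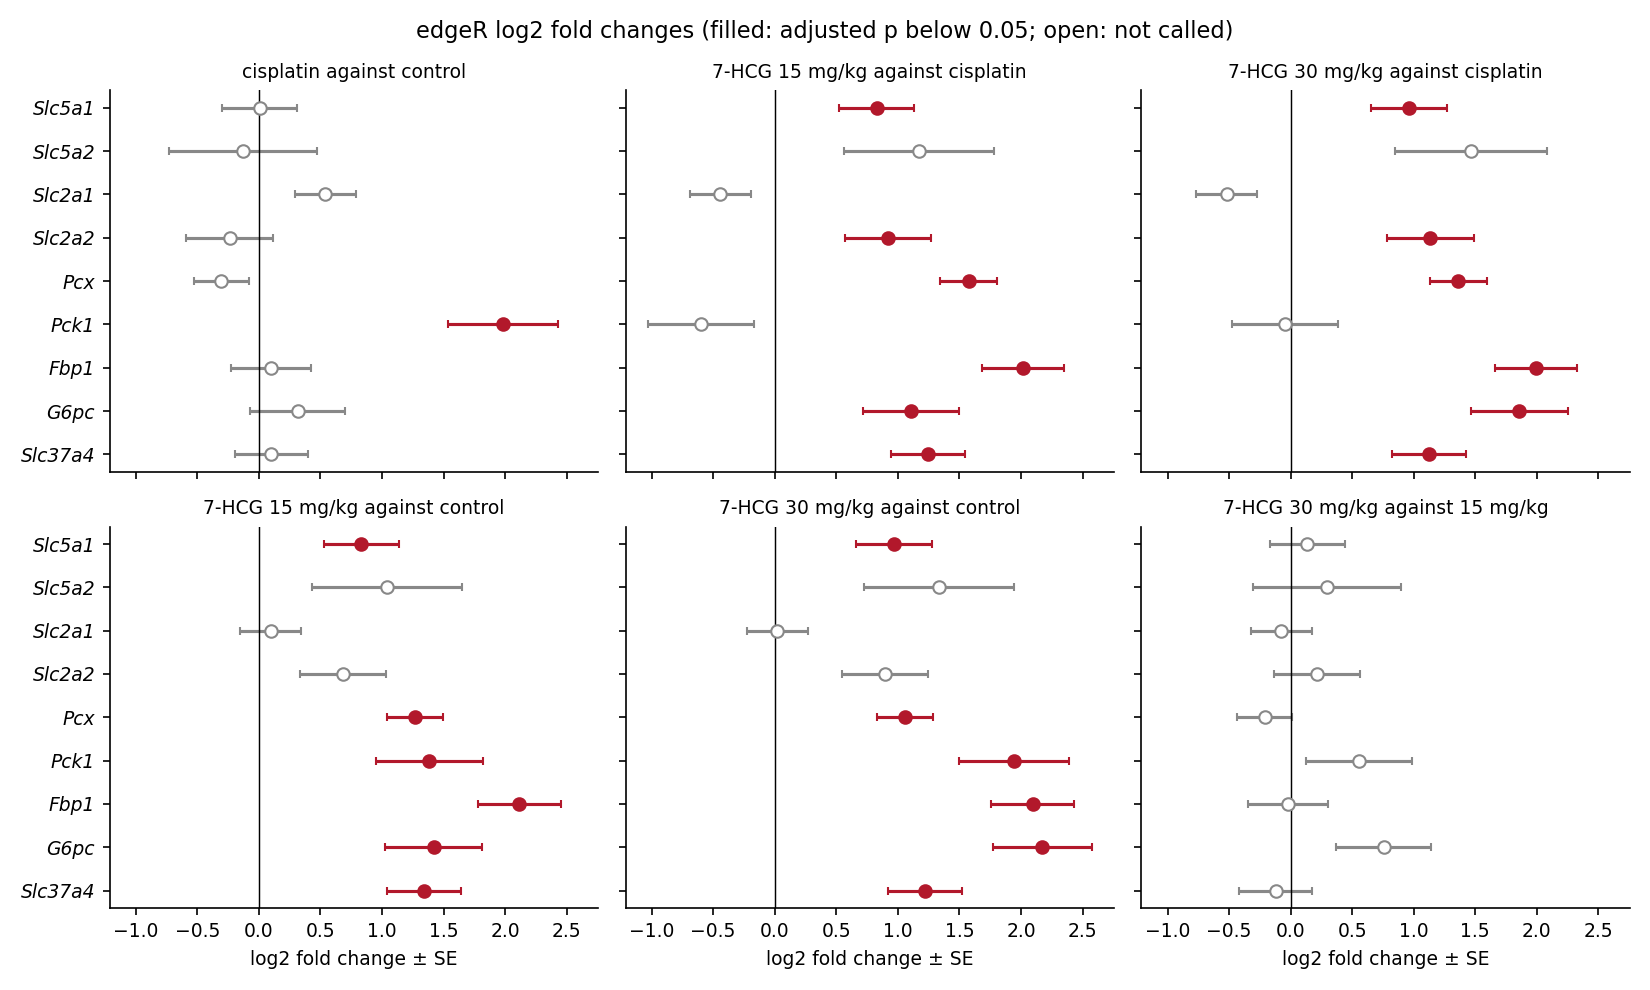
Log2 fold changes (x axis, ± standard error) of the 9 genes in the 6 comparisons, 1 panel each, from the fit over all genes. Filled red points passed an adjusted p of 0.05 and open points did not. Only Pck1 is filled for cisplatin against control, 6 genes are filled in each 7-HCG comparison with cisplatin or control, and none for 30 mg/kg against 15 mg/kg.

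The apical transporters differed in how evenly the mice of a group behaved. Slc5a2 (chr7:128265676-128272430, plus strand) is the high-capacity transporter SGLT2. Slc5a2 had 13.0, 23.9, 31.7, 15.2 and 158 CPM in cisplatin. It had 97.0, 51.8, 144, 137 and 112 CPM at 15 mg/kg and 223, 116, 80.7, 142 and 102 CPM at 30 mg/kg. In control kidneys Slc5a2 had 22.3, 32.5, 22.0, 82.0 and 104 CPM. Cisplatin replicate 10 stood above every 15 mg/kg library and above 4 of the 5 at 30 mg/kg, while the other 4 cisplatin libraries lay below every 7-HCG library. Slc5a2 was not called for 15 mg/kg against cisplatin (log2 fold change 1.17 ± 0.61, adjusted p = 0.137), nor for 30 mg/kg against cisplatin (1.46 ± 0.62, adjusted p = 0.0804). Without cisplatin replicate 10 both were called, at 2.39 (adjusted p = 0.00171) and 2.67 (adjusted p = 0.00197), as they were without replicates 9 and 10 (adjusted p = 0.00642 and 0.00729). With all libraries, limma voom called both (adjusted p = 0.0118 at 15 mg/kg and 0.00807 at 30 mg/kg), and so did edgeR on library totals (0.0168 and 0.00967). Against control, Slc5a2 differed by -0.13 ± 0.60 in cisplatin (adjusted p = 0.918). That value was -1.33 without cisplatin replicate 10, with an adjusted p of 0.0956. Neither dose was called against control, at 1.04 ± 0.61 for 15 mg/kg (adjusted p = 0.168) and 1.34 ± 0.61 for 30 mg/kg (adjusted p = 0.0958). Both passed in limma voom (adjusted p = 0.0449 at 15 mg/kg and 0.0223 at 30 mg/kg), and the 30 mg/kg value did without cisplatin replicate 10 (adjusted p = 0.0219), a library of neither group compared. Both passed without cisplatin replicates 9 and 10 (adjusted p = 0.0461 at 15 mg/kg and 0.0213 at 30 mg/kg). Of the exon length of Slc5a2, 20.6% also belongs to BC017158 on the opposite strand. No source used here gives the strand setting of the counts, so reads of the pair cannot be told apart there. BC017158 itself had 17.1 ± 3.04 CPM in cisplatin, 16.9 ± 1.83 CPM at 15 mg/kg, 15.3 ± 3.20 CPM at 30 mg/kg and 13.2 ± 2.45 CPM in control.

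Slc5a1 (chr5:33104219-33162870, plus strand), the high-affinity transporter SGLT1, was higher with 7-HCG than in either other group. Slc5a1 had 32.3, 47.0, 52.5, 10.3 and 28.8 CPM in cisplatin. It had 55.7, 50.1, 60.4, 65.2 and 72.9 CPM at 15 mg/kg and 63.6, 56.7, 85.6, 70.0 and 58.7 CPM at 30 mg/kg. In control kidneys Slc5a1 had 29.6, 31.5, 17.2, 48.3 and 44.3 CPM. All 10 libraries of the dose groups lay above all 5 control libraries, and all but 15 mg/kg replicate 2 lay above all 5 cisplatin libraries. The log2 fold change was 0.83 ± 0.31 for 15 mg/kg against cisplatin (adjusted p = 0.0388) and 0.96 ± 0.31 for 30 mg/kg against cisplatin (adjusted p = 0.0246). Both calls were lost without cisplatin replicates 9 and 10 together, at 0.50 (adjusted p = 0.139) and 0.59 (adjusted p = 0.111), and with library totals as scaling (adjusted p = 0.149 at 15 mg/kg and 0.0815 at 30 mg/kg). With the 2 groups fitted alone the adjusted p was 0.0614 at 15 mg/kg and 0.0535 at 30 mg/kg. The 15 mg/kg call was also lost without the 4 libraries high in adipose markers (adjusted p = 0.05005). For 15 mg/kg, leaving out cisplatin replicate 2, 9 or 10, or 15 mg/kg replicate 3, 5 or 7, also ended the call, with adjusted p from 0.0586 to 0.0806. For 30 mg/kg, leaving out cisplatin replicate 2 or 10 or 30 mg/kg replicate 6 did so, with adjusted p from 0.0519 to 0.0561.

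Slc2a2 (chr3:28697903-28731359, plus strand) is the blood-side exit route GLUT2. Slc2a2 had 10.8, 32.0, 51.3, 15.0 and 33.6 CPM in cisplatin. It had 49.0, 43.1, 64.7, 56.8 and 57.2 CPM at 15 mg/kg and 80.0, 51.1, 51.5, 77.4 and 54.0 CPM at 30 mg/kg. In control kidneys Slc2a2 had 25.7, 24.0, 15.8, 50.4 and 53.0 CPM. Only cisplatin replicate 6 reached into the range of the dose groups, and control replicates 7 and 8 did so as well. Slc2a2 rose by 0.92 ± 0.35 on the log2 scale for 15 mg/kg against cisplatin (adjusted p = 0.0443) and by 1.13 ± 0.35 for 30 mg/kg against cisplatin (adjusted p = 0.022). The 15 mg/kg call is marginal: it was lost without any 1 of 10 libraries, namely cisplatin replicates 2, 3, 9 and 10, 15 mg/kg replicates 1, 3, 5 and 7, and 30 mg/kg replicates 5 and 8, with adjusted p from 0.0502 to 0.108. It was also lost with library totals as scaling (adjusted p = 0.0688), with no filter on low counts (adjusted p = 0.0533), with the 2 groups fitted alone (adjusted p = 0.0511) and without the 4 libraries high in adipose markers (adjusted p = 0.055). Without cisplatin replicates 9 and 10 the adjusted p was 0.132 at 15 mg/kg and 0.0967 at 30 mg/kg. The 30 mg/kg call was lost without cisplatin replicate 2 or 9 or 30 mg/kg replicate 1, with adjusted p from 0.0523 to 0.0591. Against control, Slc2a2 was not called at 15 mg/kg (0.68 ± 0.35, adjusted p = 0.115) or at 30 mg/kg (0.89 ± 0.35, adjusted p = 0.0523). The 30 mg/kg value passed without control replicate 7 or 8 or cisplatin replicate 2, 6 or 9, with adjusted p from 0.0274 to 0.0434, and without cisplatin replicates 9 and 10 together (adjusted p = 0.0479).

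Slc2a1 (chr4:119108711-119137983, plus strand), the widely expressed GLUT1, was the transporter whose fold changes ran the other way. Slc2a1 had 154, 119, 89.2, 66.8 and 184 CPM in cisplatin. It had 74.2, 81.5, 70.0, 144 and 81.6 CPM at 15 mg/kg and 85.9, 77.1, 119, 64.4 and 80.9 CPM at 30 mg/kg. In control kidneys Slc2a1 had 91.6, 95.3, 84.5, 72.4 and 78.0 CPM. Cisplatin replicates 2, 3 and 10 lay above every control library and replicate 9 below every one of them. No comparison called it: the log2 fold change was 0.54 ± 0.25 for cisplatin against control (adjusted p = 0.158), -0.44 ± 0.25 for 15 mg/kg against cisplatin (adjusted p = 0.164) and -0.52 ± 0.25 for 30 mg/kg against cisplatin (adjusted p = 0.121). It was called lower at 15 mg/kg than in cisplatin once 15 mg/kg replicate 5 was left out (-0.67, adjusted p = 0.0386), and lower at 30 mg/kg than in cisplatin without cisplatin replicate 9 (-0.68, adjusted p = 0.0417). Without the 4 libraries high in adipose markers it was called lower at both doses than in cisplatin, by -0.66 each (adjusted p = 0.0406 at 15 mg/kg and 0.0476 at 30 mg/kg). An antisense gene, Gm12868, shares 2.99% of the exon length of Slc2a1.

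**Figure D2:**
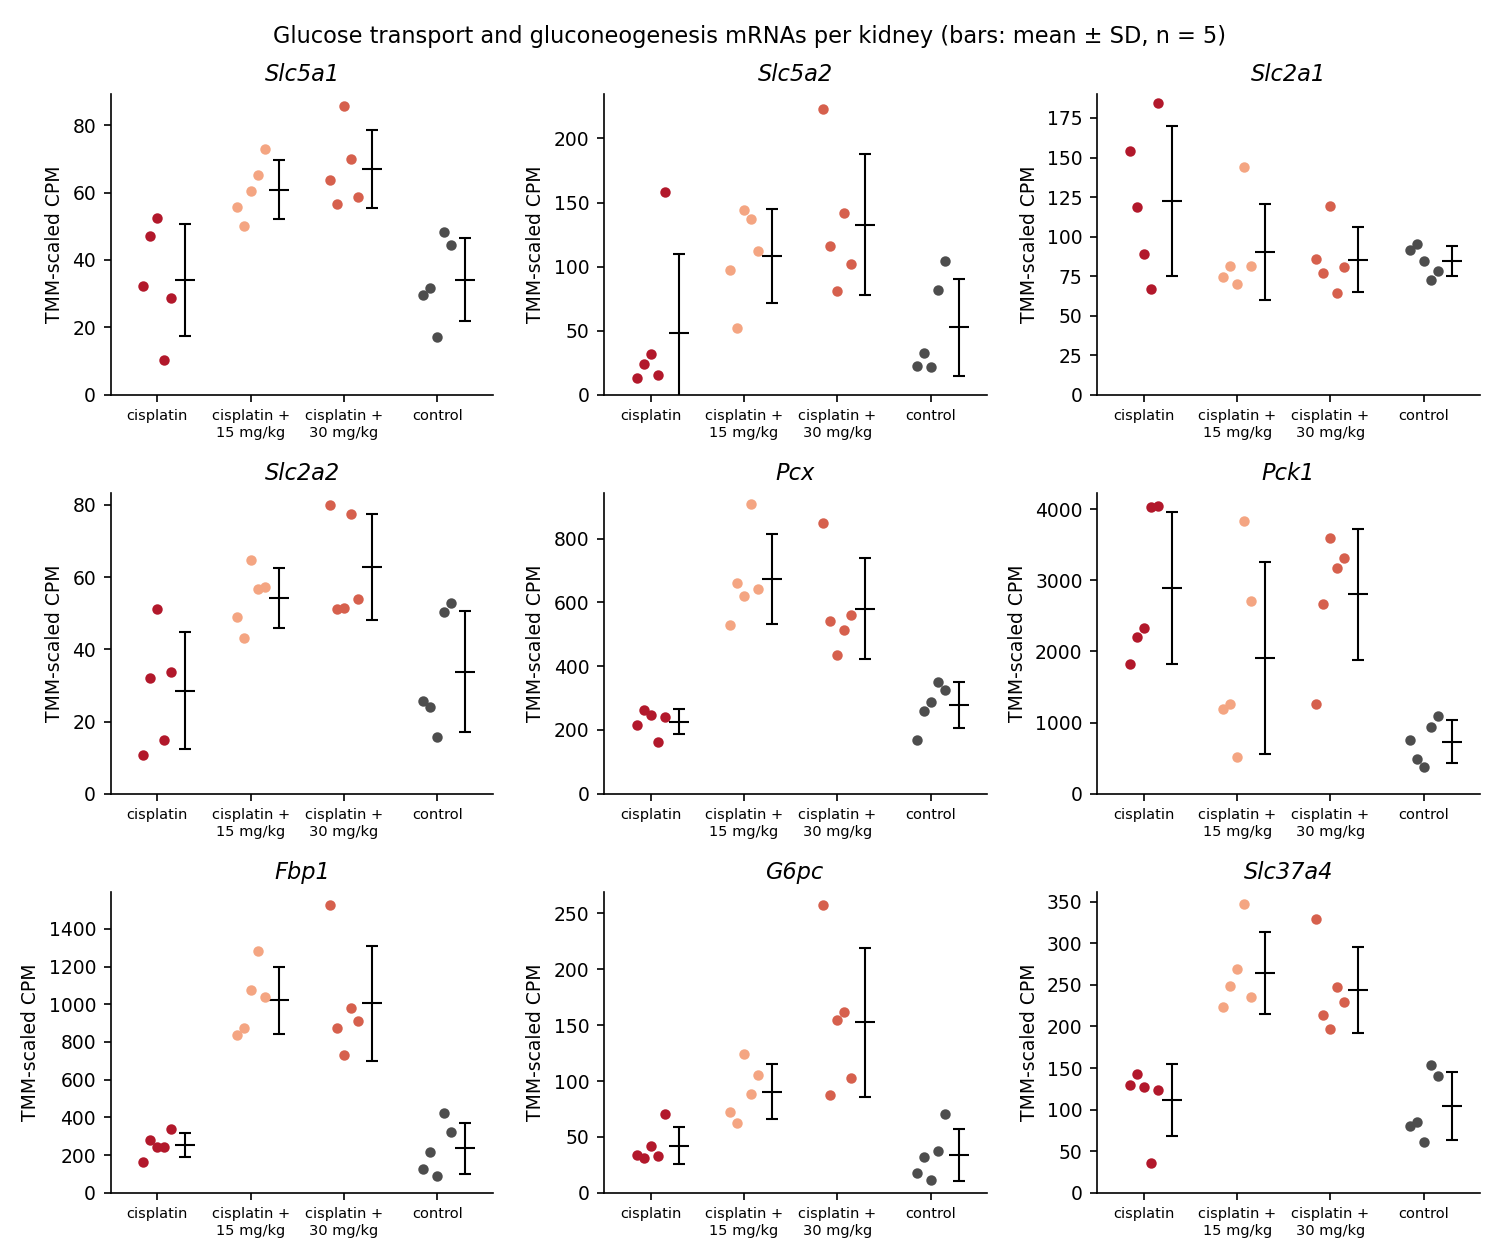
TMM-scaled CPM of the 9 genes in each of 20 kidneys, 1 point a mouse, for cisplatin, cisplatin with 15 or 30 mg/kg 7-HCG and control; bars give the mean and SD of 5 mice, cut off at 0. For Fbp1, Pcx and Slc37a4 all 10 dose-group points lie above all cisplatin points, Pck1 is high in all cisplatin points, and 1 cisplatin point of Slc5a2 stands at 158 CPM.

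The ratio of the blood-side transporters within a kidney does not depend on scaling between libraries. Per exon length, the log2 ratio of Slc2a1 to Slc2a2 averaged 2.94 ± 1.09 in cisplatin, 1.41 ± 0.46 at 15 mg/kg, 1.16 ± 0.56 at 30 mg/kg and 2.18 ± 0.87 in control (SD, n = 5 each). GLUT1 mRNA thus exceeded GLUT2 mRNA in every kidney, by 1.36-fold to 4.15-fold in the dose groups and by 2.86-fold to 23.4-fold in cisplatin. The mean log2 ratio differed by -1.53 for 15 mg/kg against cisplatin (2-sided exact permutation test, p = 0.0238, adjusted p = 0.143 over 12 tests). For 30 mg/kg against cisplatin it differed by -1.78 (exact permutation test, p = 0.0159, adjusted p = 0.143). Neither passed after adjustment, and 5 against 5 allows no p below 0.00794. Without cisplatin replicate 6, whose ratio of 2.86 was the lowest of its group, both passed, at -1.89 and -2.14 (exact permutation tests, adjusted p = 0.0476 for both). That library was the only one of cisplatin within the range of the dose groups. Leaving it out therefore separates the groups, so the pass follows from the choice of library and adds no support. For the apical pair, the log2 ratio of Slc5a1 to Slc5a2 averaged -0.50 ± 1.54 in cisplatin, -1.26 ± 0.47 at 15 mg/kg, -1.42 ± 0.68 at 30 mg/kg and -0.90 ± 0.63 in control. SGLT2 mRNA exceeded SGLT1 mRNA in all libraries of the dose groups and control, and SGLT1 mRNA exceeded SGLT2 mRNA in cisplatin replicates 2, 3 and 6. None of the 6 comparisons of that ratio passed, with exact permutation p from 0.246 to 0.706.

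**Figure D3:**
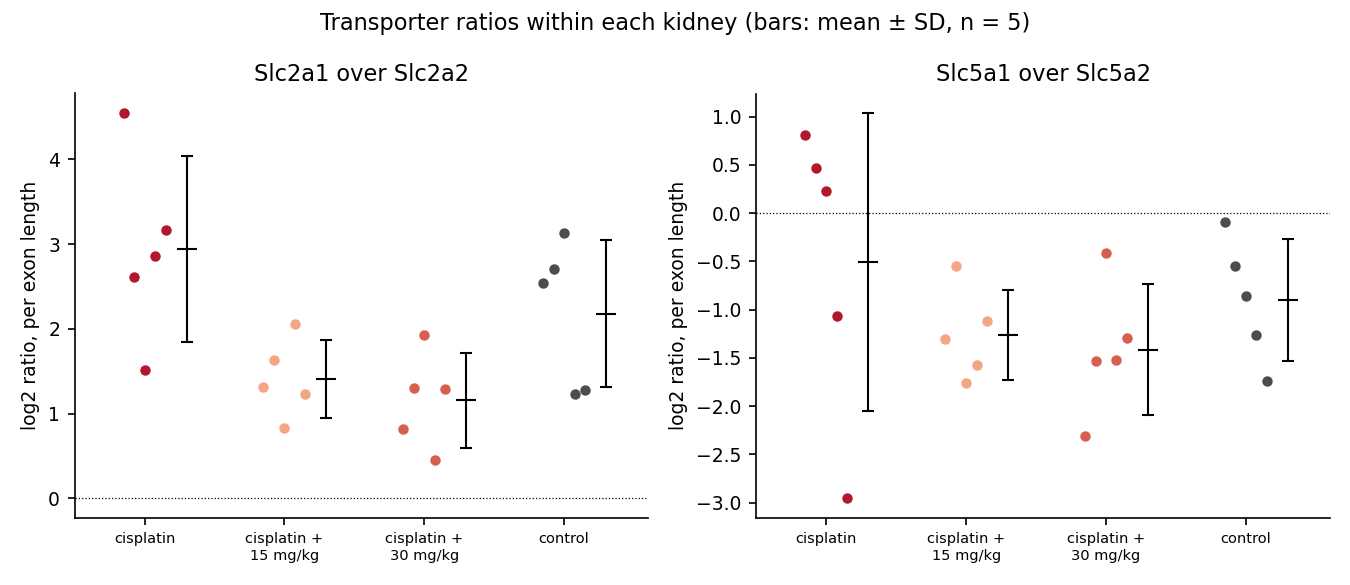
Log2 ratio per exon length of Slc2a1 to Slc2a2 (left) and of Slc5a1 to Slc5a2 (right) in each kidney, by group, with the mean and SD of 5 mice; the dotted line marks equal levels. The left-hand ratio averages 2.94 in cisplatin and 1.41 and 1.16 in the dose groups, with overlap through cisplatin replicate 6, and the right-hand ratio of cisplatin replicate 10 is -2.96.

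Glucose production opens with Pcx (chr19:4510472-4621752, plus strand), the mitochondrial enzyme that makes oxaloacetate from pyruvate. Pcx had 217, 262, 246, 162 and 242 CPM in cisplatin. It had 528, 662, 622, 908 and 642 CPM at 15 mg/kg and 849, 543, 435, 515 and 562 CPM at 30 mg/kg. In control kidneys Pcx had 169, 259, 286, 352 and 326 CPM. Every dose-group library lay above every cisplatin and every control library. Pcx rose by 1.57 ± 0.23 for 15 mg/kg against cisplatin (adjusted p = 0.000146) and by 1.36 ± 0.23 for 30 mg/kg against cisplatin (adjusted p = 0.000694). Against control it rose by 1.27 ± 0.23 at 15 mg/kg (adjusted p = 0.000315) and by 1.06 ± 0.23 at 30 mg/kg (adjusted p = 0.00198). The 30 mg/kg call against control was lost with library totals as scaling in edgeR (adjusted p = 0.0582). In cisplatin Pcx was not called against control (-0.30 ± 0.22, adjusted p = 0.395). Adipose tissue also expresses Pcx. Replicate 5, the control library with the most adipose RNA, had 286 CPM of Pcx, the median of its group. It also had the lowest sum of proximal tubule markers in control, at 16188 CPM. Of the other libraries high in adipose markers, control replicate 2 had 259 CPM of Pcx. In 15 mg/kg replicate 5 Pcx was at 908 CPM, the highest of its group, and in 30 mg/kg replicate 6 at 435 CPM, the lowest. The part of adipose RNA in the Pcx values was not tested.

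Pck1 (chr2:173153048-173159273, plus strand), which turns oxaloacetate into phosphoenolpyruvate, was the member called for cisplatin alone. Pck1 had 1824, 2206, 2324, 4032 and 4048 CPM in cisplatin. It had 1197, 1263, 511, 3837 and 2710 CPM at 15 mg/kg and 1263, 2663, 3596, 3176 and 3310 CPM at 30 mg/kg. In control kidneys Pck1 had 752, 488, 369, 939 and 1095 CPM. All 5 cisplatin libraries lay above all 5 control libraries, a pattern that 5.88% of all genes shared. The 15 mg/kg group spread 7.51-fold, from below control replicate 1 to near the highest cisplatin library. For cisplatin against control Pck1 rose by 1.99 ± 0.45 (adjusted p = 0.00887). Leaving out any single library kept the call. It was lost without cisplatin replicates 9 and 10 (1.51, adjusted p = 0.0666), the libraries with the most mitochondrial mRNA and the highest Pck1. It was also lost without control replicates 2 and 5 (1.63, adjusted p = 0.0833), the control libraries with the most adipose RNA and the least Pck1, and without all 4 libraries high in adipose markers (1.63, adjusted p = 0.0554). Adipose tissue itself expresses Pck1, and its part in these values was not tested. Neither dose was called against cisplatin: the log2 fold change was -0.60 ± 0.43 at 15 mg/kg (adjusted p = 0.281) and -0.04 ± 0.43 at 30 mg/kg (adjusted p = 0.950). The 30 mg/kg value was 0.57 with library totals as scaling and 0.38 without cisplatin replicates 9 and 10. Against control Pck1 rose by 1.39 ± 0.44 at 15 mg/kg (adjusted p = 0.0145) and by 1.94 ± 0.44 at 30 mg/kg (adjusted p = 0.00309). The 15 mg/kg call was lost without 15 mg/kg replicate 5 (0.96, adjusted p = 0.0739), one of the libraries high in adipose markers.

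Fbp1 (chr13:62864753-62888282, minus strand), which removes a phosphate from fructose-1,6-bisphosphate, showed the largest rise of the 9 members for both doses against cisplatin. Fbp1 had 162, 278, 241, 242 and 340 CPM in cisplatin. It had 838, 872, 1077, 1280 and 1037 CPM at 15 mg/kg and 1527, 875, 732, 983 and 913 CPM at 30 mg/kg. In control kidneys Fbp1 had 129, 217, 90.2, 421 and 321 CPM. The lowest library of the dose groups, at 732 CPM, stood above the highest of the others, at 421 CPM. Fbp1 rose 4.04-fold for 15 mg/kg against cisplatin (log2 2.02 ± 0.34, adjusted p = 0.000293) and 3.98-fold for 30 mg/kg against cisplatin (1.99 ± 0.33, adjusted p = 0.000694). Against control it rose by 2.12 ± 0.34 at 15 mg/kg (adjusted p = 0.000143) and by 2.09 ± 0.34 at 30 mg/kg (adjusted p = 0.000265). Cisplatin kidneys averaged 253 ± 65.0 CPM and control kidneys 236 ± 137 CPM, a difference that was not called (0.10 ± 0.32, adjusted p = 0.873).

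G6pc (chr11:101367561-101377903, plus strand), which releases free glucose, was the member with the widest gap between the doses. G6pc had 33.9, 31.5, 42.1, 32.9 and 70.7 CPM in cisplatin. It had 72.2, 62.2, 124, 88.7 and 105 CPM at 15 mg/kg and 257, 87.6, 155, 162 and 102 CPM at 30 mg/kg. In control kidneys G6pc had 17.3, 31.9, 11.5, 37.5 and 70.9 CPM. All 30 mg/kg libraries lay above all cisplatin and control libraries, and at 15 mg/kg all but replicate 2 did. Against cisplatin G6pc rose by 1.10 ± 0.39 at 15 mg/kg (adjusted p = 0.0309) and by 1.86 ± 0.40 at 30 mg/kg (adjusted p = 0.00275). The 15 mg/kg call was lost without cisplatin replicate 2, 3, 6 or 9 or without 15 mg/kg replicate 3, 5 or 7, with adjusted p from 0.0507 to 0.0736. Against control it rose by 1.42 ± 0.39 at 15 mg/kg (adjusted p = 0.00661) and by 2.17 ± 0.40 at 30 mg/kg (adjusted p = 0.000759). For cisplatin against control it was not called (0.32 ± 0.39, adjusted p = 0.633).

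Slc37a4 (chr9:44396852-44402968, plus strand) is the carrier that brings glucose-6-phosphate to that enzyme. Slc37a4 had 129, 142, 127, 35.9 and 124 CPM in cisplatin. It had 223, 249, 269, 347 and 235 CPM at 15 mg/kg and 330, 214, 197, 247 and 229 CPM at 30 mg/kg. In control kidneys Slc37a4 had 80.7, 84.7, 61.3, 154 and 141 CPM. All dose-group libraries lay above all others, and cisplatin replicate 9 stood far below its group. Slc37a4 rose by 1.24 ± 0.30 for 15 mg/kg against cisplatin (adjusted p = 0.00349) and by 1.12 ± 0.30 for 30 mg/kg against cisplatin (adjusted p = 0.00974). Against control it rose by 1.34 ± 0.30 at 15 mg/kg (adjusted p = 0.00161) and by 1.22 ± 0.30 at 30 mg/kg (adjusted p = 0.00479). For cisplatin against control it was not called (0.10 ± 0.30, adjusted p = 0.862).

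Set against control, 6 of 9 members were called higher at 15 mg/kg and 6 at 30 mg/kg, and none lower. The share of all genes called higher was 23% at 15 mg/kg and 18.6% at 30 mg/kg, and 45.2% and 34.2% were called in either direction. They were Fbp1, Pcx, Slc37a4, G6pc, Pck1 and Slc5a1 at both doses. Slc5a1 was higher by 0.83 ± 0.31 at 15 mg/kg (adjusted p = 0.0319) and by 0.97 ± 0.31 at 30 mg/kg (adjusted p = 0.02). With library totals as scaling in edgeR, Slc5a1 was called at neither dose (adjusted p = 0.171 at 15 mg/kg and 0.101 at 30 mg/kg). Groups did not overlap, with 7-HCG higher, for 4 members at 15 mg/kg (16.2% of all genes) and 6 at 30 mg/kg (15.9% of all genes). Without the 4 libraries high in adipose markers, 2 members were called at 15 mg/kg, Fbp1 and Pcx, and 4 at 30 mg/kg. The calls lost there at 15 mg/kg were those of G6pc (1.12, adjusted p = 0.0865), Slc37a4 (0.97, adjusted p = 0.0562), Pck1 (0.61, adjusted p = 0.345) and Slc5a1 (0.56, adjusted p = 0.257), and at 30 mg/kg those of Slc37a4 (1.03, adjusted p = 0.0523) and Slc5a1 (0.62, adjusted p = 0.23). The Slc5a1 calls were lost without control replicate 5 at both doses, with adjusted p of 0.0857 and 0.0547. At 15 mg/kg they were lost as well without control replicate 1 or 2 or 15 mg/kg replicate 5 or 7, with adjusted p from 0.0571 to 0.0684. At each dose 4 members were called without control replicates 2 and 5 together. The calls lost were those of Slc5a1 at both doses (adjusted p = 0.19 and 0.131), Pck1 at 15 mg/kg (adjusted p = 0.115) and Slc37a4 at 30 mg/kg (adjusted p = 0.0512). Over the alternatives, all genes called against control ran from 3102 to 7669 at 15 mg/kg and from 2051 to 6067 at 30 mg/kg. Calls lost among the members therefore cannot be told from a general loss of calls. These comparisons use the same dose-group libraries as those with cisplatin. Of the 10 proximal tubule markers, 4 were called higher than in control at 15 mg/kg (median log2 fold change 0.70) and 2 at 30 mg/kg (0.73), none lower. Without control replicates 2 and 5 these counts were 1 and 0, and without the 4 libraries high in adipose markers 0 and 0. The proximal tubule's part in the members' differences from control was not tested.

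No member was called between the doses, and none of the 14858 genes was (0%) in edgeR, while 1066 had an unadjusted p below 0.05, none of them a member. DESeq2 called 1 gene and limma voom called 0. The widest gap was that of G6pc, with 153 ± 66.7 CPM at 30 mg/kg and 90.5 ± 24.9 CPM at 15 mg/kg, a log2 fold change of 0.75 ± 0.39 (adjusted p = 0.677). Pck1 followed at 0.56, with 2802 ± 924 CPM at 30 mg/kg and 1904 ± 1345 CPM at 15 mg/kg (adjusted p = 0.740). The other 7 members lay between -0.21 and 0.29. Each of the 9 values was under 2 of its standard errors.

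Per exon length, as CPM per kilobase of exon (RPKM), Pck1, Fbp1 and Pcx had the highest means of the 9 members in every group. Pck1 averaged 842 ± 312 RPKM in cisplatin, 555 ± 392 at 15 mg/kg, 817 ± 270 at 30 mg/kg and 213 ± 88.2 in control. Fbp1 averaged 148 ± 38.2 RPKM in cisplatin, 600 ± 104 at 15 mg/kg, 591 ± 179 at 30 mg/kg and 138 ± 80.3 in control. In cisplatin Pck1 was the higher of the pair in 5 of 5 kidneys, by 5.67-fold on average. At 15 mg/kg Fbp1 was the higher in 3 of 5, so their order did not differ beyond the spread. Pcx and Slc37a4 came next in every group, at 141 ± 29.7 and 92.6 ± 17.1 RPKM at 15 mg/kg and 58.6 ± 14.9 and 36.5 ± 14.2 RPKM in control. In cisplatin Slc37a4, at 39.1 ± 15.0 RPKM, did not differ beyond the spread from Slc2a1, which had 35.0 ± 13.6 RPKM and lay below it in 3 of 5 kidneys. G6pc followed at both doses, at 37.5 ± 10.3 RPKM at 15 mg/kg and 63.3 ± 27.6 RPKM at 30 mg/kg, and stood below Slc2a1 and Slc5a2 in control, at 14.0 ± 9.64 RPKM. Its nearest neighbour, Slc5a2, had 37.4 ± 12.7 RPKM at 15 mg/kg and 45.8 ± 19.1 RPKM at 30 mg/kg, within the spread of G6pc. Slc5a1 and Slc2a2 had the lowest means of the members in every group. In cisplatin Slc5a1, at 8.33 ± 4.05 RPKM, did not differ beyond the spread from Slc5a2. The latter had 16.7 ± 21.3 RPKM and lay above Slc5a1 in 2 of 5 kidneys. Slc2a2 averaged 4.96 ± 2.82 RPKM in cisplatin, 9.41 ± 1.44 at 15 mg/kg, 10.9 ± 2.54 at 30 mg/kg and 5.87 ± 2.91 in control.

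**Figure D4:**
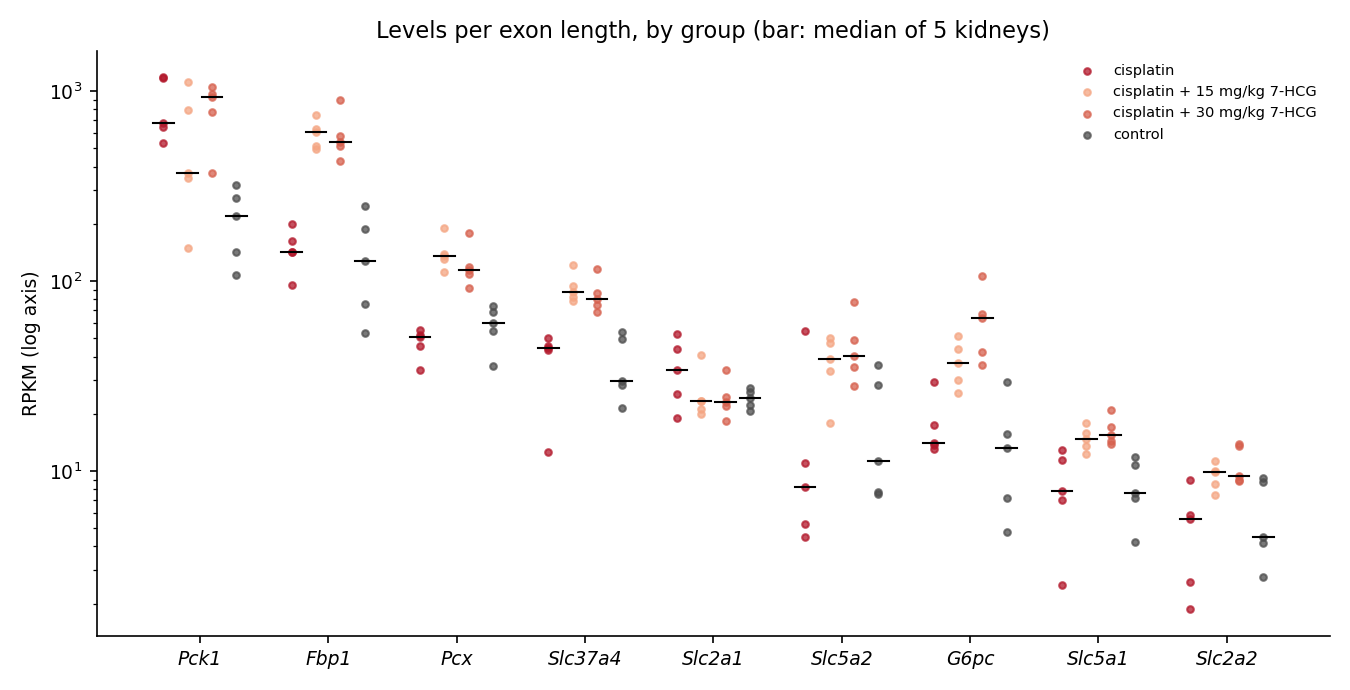
RPKM on a log axis for each gene, ordered by its control mean, with 1 point a mouse and a bar at the median of each group of 5. Pck1 and Fbp1 have the highest medians in all groups and Slc5a1 and Slc2a2 the lowest, although single points of Slc5a2 in cisplatin lie as low. The dose groups of Fbp1 average 600 and 591 RPKM against 138 in control.

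Around their group means, the members did not all vary together over the 20 libraries. Pearson r of log2 CPM, after the group mean was taken off, was 0.84 for Slc5a1 with Slc37a4, 0.79 for G6pc with Fbp1, 0.78 for Slc5a2 with G6pc and 0.77 for Slc5a2 with Fbp1. Without cisplatin replicates 9 and 10 these were 0.64, 0.78, 0.81 and 0.87. Pck1 stood apart, with r of -0.01 to 0.29 with the other 8 members, and so did Slc2a1, with r of -0.13 to 0.40. These ranges were 0.07 to 0.53 for Pck1 and -0.48 to 0.33 for Slc2a1 without cisplatin replicates 9 and 10. Each member was also set against the 10401 tested genes averaging at least 5 CPM, itself left out. The closest to Slc5a2 was the phosphate transporter gene Slc34a3 (r = 0.97), followed by the amino acid transporter gene Slc6a19 (r = 0.92). The closest to Fbp1 was Ass1, argininosuccinate synthase (r = 0.93), and to Slc37a4 it was Treh, trehalase (r = 0.95). Closest to Slc5a1 was Stmn1 (r = 0.94), to Pcx Ctnnbip1 (r = 0.95), to Slc2a1 Ric8a (r = 0.90), to Slc2a2 Habp2 (r = 0.88), to G6pc Mtif3 (r = 0.85) and to Pck1 Sat1 (r = 0.80). All genes of a library share its depth and its cell make-up, which differed between libraries, and the highest of so many values is high by selection.

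Of 15 genes for other enzymes of the route, 12 were called higher for 15 mg/kg against cisplatin and 8 for 30 mg/kg against cisplatin, none lower, with medians of 1.10 and 0.93 on the log2 scale. The counts were 9 and 7 without cisplatin replicates 9 and 10. Triose phosphate isomerase (Tpi1) rose by 1.54 ± 0.25 at 15 mg/kg (adjusted p = 0.000286) and by 1.32 ± 0.25 at 30 mg/kg (adjusted p = 0.0014). Cytosolic malate dehydrogenase (Mdh1), which turns malate exported from mitochondria back into oxaloacetate, rose by 1.32 ± 0.23 at 15 mg/kg (adjusted p = 0.000416) and by 1.29 ± 0.23 at 30 mg/kg (adjusted p = 0.0011). Enolase (Eno1) rose by 1.46 ± 0.26 at 15 mg/kg and phosphoglycerate kinase (Pgk1) by 1.22 ± 0.22. Most of these enzymes also work in glycolysis, in the other direction. For cisplatin against control only Got1, the cytosolic aspartate aminotransferase, was called, at 1.69 ± 0.29 (adjusted p = 0.00242), and the median was 0.06. Against control, 14 of 15 were called higher at 15 mg/kg and 11 at 30 mg/kg, led by lactate dehydrogenase B (Ldhb) at 1.80 ± 0.25 and 1.58 ± 0.24. Without control replicates 2 and 5 the counts were 10 and 5. For this list and those below, the share of all tested genes called higher was 8.41% for cisplatin against control. It was 18.9% and 14.7% for 15 and 30 mg/kg against cisplatin, and 23% and 18.6% against control.

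Of 19 genes that feed the route, 4 were called higher for cisplatin against control and none lower, with a median of -0.06. They were Slc38a3, the glutamine transporter SNAT3 (2.18 ± 0.51, adjusted p = 0.0114), the alanine aminotransferase Gpt (1.92 ± 0.45, adjusted p = 0.0119), the pyruvate dehydrogenase kinase Pdk4 (4.20 ± 0.98, adjusted p = 0.0124) and glutamate dehydrogenase Glud1 (1.25 ± 0.31, adjusted p = 0.0142). Without control replicates 2 and 5 none of the 19 was called, and without cisplatin replicates 9 and 10 there were 3. For 15 mg/kg against cisplatin 9 were called higher and 1 lower (median 0.49), and for 30 mg/kg against cisplatin 8 were called higher (median 0.66), or 3 without cisplatin replicates 9 and 10. Glycerol-3-phosphate dehydrogenase (Gpd1) rose by 1.47 ± 0.27 at 15 mg/kg (adjusted p = 0.000481) and by 1.20 ± 0.26 at 30 mg/kg (adjusted p = 0.00326). Against control 15 were called higher and 1 lower at 15 mg/kg, and 14 higher at 30 mg/kg. Without control replicates 2 and 5 the higher calls numbered 11 and 7.

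Of 17 tested transporters of the SLC5 and SLC2 families and their partner Pdzk1ip1, 8 were called higher and 1 lower for 15 mg/kg against cisplatin (median 0.37), and 7 higher and 1 lower for 30 mg/kg against cisplatin (median 0.56). The fructose transporter gene Slc2a5 rose by 2.06 ± 0.41 at 15 mg/kg (adjusted p = 0.00101) and by 1.70 ± 0.41 at 30 mg/kg (adjusted p = 0.00551). Pdzk1ip1, which encodes MAP17, a partner protein that activates SGLT2, rose by 1.35 ± 0.29 at 15 mg/kg (adjusted p = 0.00149). The mannose and fructose cotransporter gene Slc5a10 rose by 1.77 ± 0.42 at 15 mg/kg (adjusted p = 0.00299), and the urate transporter gene Slc2a9 by 1.30 ± 0.31 at 30 mg/kg (adjusted p = 0.00554). Those called lower were Slc2a3, the GLUT3 gene, at 15 mg/kg (-2.12 ± 0.57, adjusted p = 0.00672) and Slc2a6 at 30 mg/kg (-1.36 ± 0.50, adjusted p = 0.0469). Without cisplatin replicates 9 and 10 the higher calls numbered 5 and 3. For cisplatin against control Slc2a8 alone was called, at 0.67 ± 0.20 (adjusted p = 0.0294), with a median of -0.33. Against control the counts were 7 higher and 2 lower at 15 mg/kg and 5 higher and 2 lower at 30 mg/kg. Without the 4 libraries high in adipose markers the higher calls numbered 2 and 1.

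The genes of a list of glycolytic enzymes, 16 tested, were called in both directions. Not all of them belong to glycolysis alone: the list holds Ldha, while Ldhb is counted above with the other enzymes of the route. For cisplatin against control 4 were higher and 1 lower, among them the platelet-type phosphofructokinase gene Pfkp, higher by 0.92 ± 0.18 (adjusted p = 0.00412), and Hkdc1, a hexokinase domain protein, by 1.71 ± 0.35 (adjusted p = 0.00596). Without control replicates 2 and 5, 1 gene of the list was called. For 15 mg/kg against cisplatin 4 were higher and 5 lower. The regulatory enzyme gene Pfkfb2 was lower by 1.83 on the log2 scale (-1.83 ± 0.32, adjusted p = 0.000363), and lactate dehydrogenase A (Ldha) was higher by 1.09 ± 0.25 (adjusted p = 0.00281). At 30 mg/kg against cisplatin 1 was higher, Ldha at 1.06 ± 0.25, and 4 were lower. Without cisplatin replicates 9 and 10 the 15 mg/kg counts were 2 higher and 1 lower. Medians ran from -0.19 to 0.08 over these 3 comparisons. Against control 5 were higher and 3 lower at 15 mg/kg, and 3 higher and 5 lower at 30 mg/kg. Over all tested genes, 13.4% were called in either direction for cisplatin against control. The shares were 37.5% and 27.9% for 15 and 30 mg/kg against cisplatin, and 45.2% and 34.2% against control.

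Of 18 regulators of the route, 2 were called higher and 1 lower for cisplatin against control. The transcription factor gene Foxo3 rose by 1.20 ± 0.23 (adjusted p = 0.00373), and so did the salt-inducible kinase gene Sik1, by 1.09 ± 0.35 (adjusted p = 0.0423). The glucocorticoid receptor gene Nr3c1 fell by 1.02 on the log2 scale (-1.02 ± 0.25, adjusted p = 0.0132). Without cisplatin replicates 9 and 10, or without control replicates 2 and 5, 1 regulator was called higher and 0 lower. For 15 mg/kg against cisplatin, Sik1, a brake on cyclic AMP-driven transcription, was lower (-1.46 ± 0.35, adjusted p = 0.0036), as were Sirt1 (-1.28 ± 0.31, adjusted p = 0.00379), Irs2 (-1.43 ± 0.36, adjusted p = 0.0047) and Crtc2 (-0.54 ± 0.19, adjusted p = 0.0327). The 2 that were higher were Cebpa, at 1.27 ± 0.35 (adjusted p = 0.00782), and Hnf4a, at 0.70 ± 0.26 (adjusted p = 0.0371). At 30 mg/kg against cisplatin, only Cebpa (1.19 ± 0.35, adjusted p = 0.0154) and Sik1 (-1.06 ± 0.35, adjusted p = 0.0296) were called, and neither was without cisplatin replicates 9 and 10. Against control, Foxo3 and Hnf4a were among the 5 called higher at 15 mg/kg and the 4 at 30 mg/kg, while 3 were called lower at 15 mg/kg (median -0.16) and 2 at 30 mg/kg (median 0.12). Hnf4a, a nuclear receptor of proximal tubule and liver, rose by 0.98 ± 0.26 at 15 mg/kg (adjusted p = 0.00497) and by 0.94 ± 0.26 at 30 mg/kg (adjusted p = 0.00917). Without control replicates 2 and 5 the higher calls of the list numbered 2 and 1 and the lower calls 1 and 0. Over all tested genes, 13.4% were called in either direction for cisplatin against control. The shares were 37.5% and 27.9% for 15 and 30 mg/kg against cisplatin, and 45.2% and 34.2% against control. The regulators called were near or below these shares, so their counts do not set this list apart.

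**Figure D5:**
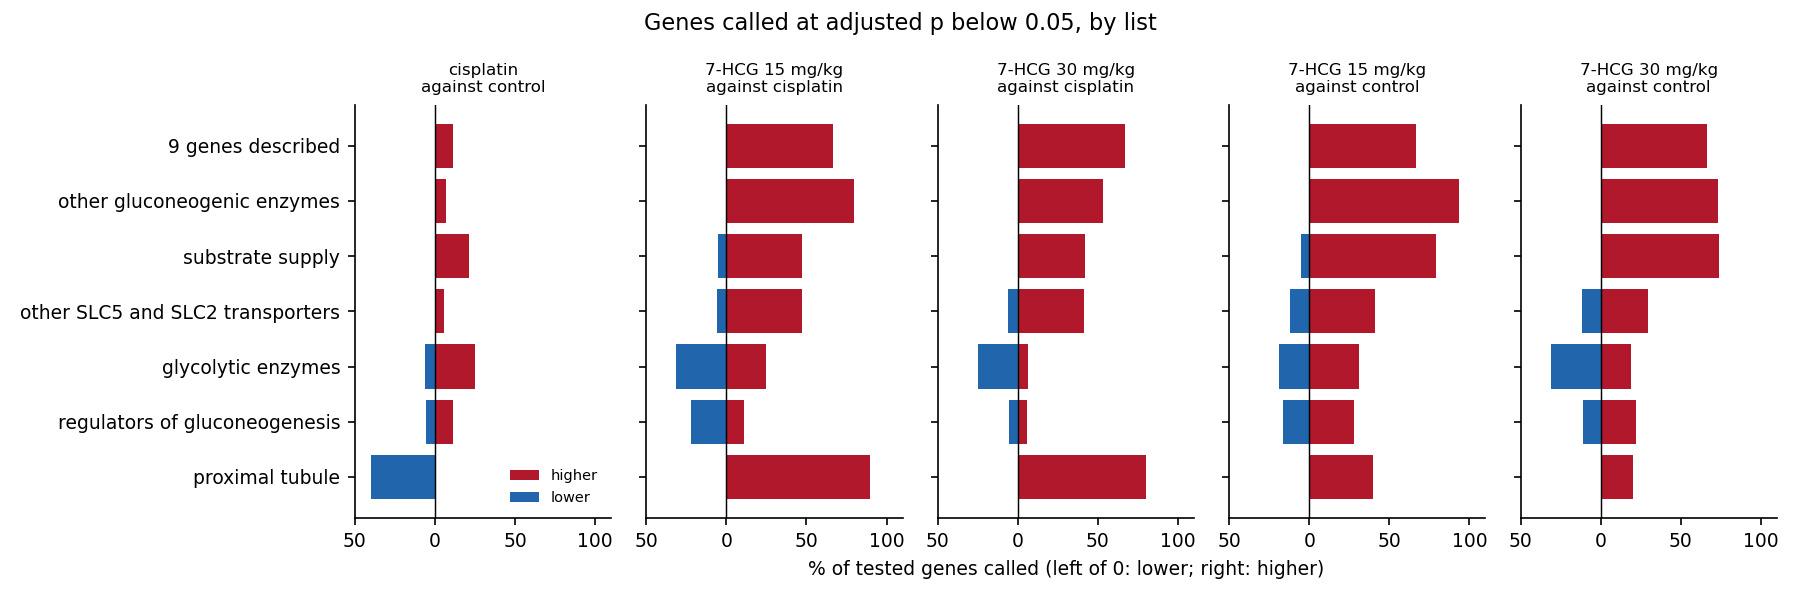
Share of the tested genes of each list called higher (right of 0) or lower (left of 0) at an adjusted p of 0.05, in % of the list, 1 panel per comparison. The other gluconeogenic enzymes are called to the right only, 12 of 15 for 15 mg/kg against cisplatin, while the glycolytic enzymes are called on both sides.

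Several markers of other tissues were also checked, since liver expresses all of Pck1, G6pc, Fbp1, Pcx, Slc2a2 and Slc37a4. Summed liver markers, a list of 7, came to 219 to 524 CPM in cisplatin, 729 to 1187 CPM at 15 mg/kg, 984 to 1755 CPM at 30 mg/kg and 225 to 742 CPM in control, and every sum of the dose groups lay above every cisplatin sum. Most of that sum was Cyp2e1, which mouse kidney also expresses, at 273 CPM in cisplatin, 698 CPM at 15 mg/kg, 1040 CPM at 30 mg/kg and 317 CPM in control on average. Cyp2e1 was called higher for each dose against cisplatin and against control, Apoa2 for 15 mg/kg against both, and Alb for each dose against control. Serpina1a averaged 82.6 CPM in cisplatin, 158 CPM at 15 mg/kg, 87.9 CPM at 30 mg/kg and 68.7 CPM in control, and Ttr 29.1, 61.3, 46.9 and 43.9 CPM in the same order, neither of them called. In calls, that is 2 of the 5 tested genes at 15 mg/kg and 1 at 30 mg/kg against cisplatin, and 3 and 2 against control. Of the same list, Alb lay between 2.20 and 9.74 CPM in all 20 libraries, Ahsg reached at most 1.43 CPM and Tat at most 0.41 CPM. Tat was at 0 in all libraries of the dose groups. Summed endothelial markers came to 111 to 316 CPM in cisplatin, 99.0 to 184 CPM at 15 mg/kg, 48.0 to 195 CPM at 30 mg/kg and 259 to 799 CPM in control, and of the 6 genes 3, 5 and 6 were called lower than in control. These counts were 0, 3 and 1 without control replicates 2 and 5. All 3 tested neutrophil markers were called higher for cisplatin against control and lower at both doses against cisplatin, and none of them without cisplatin replicates 9 and 10. Only 1 of the 3 was called for cisplatin against control without control replicates 2 and 5. Summed red cell markers came to 17.4 to 36.1 CPM in cisplatin, 15.4 to 101 CPM at 15 mg/kg, 4.32 to 37.8 CPM at 30 mg/kg and 167 to 659 CPM in control. Of these 5 genes, 4 were called lower in each comparison with control, or 2, 3 and 4 for cisplatin, 15 mg/kg and 30 mg/kg without control replicates 2 and 5. Podocyte markers summed to 43.6 to 94.0 CPM in cisplatin, 34.5 to 187 CPM at 15 mg/kg, 29.3 to 194 CPM at 30 mg/kg and 149 to 278 CPM in control. The part of these cell types in the members' values was not tested.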

How the data were processed

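Per the labels' protocols, oligo(dT)-selected RNA of whole kidneys, with an integrity number no lower than 7, was sequenced as paired reads. The submitters' processing notes name HISAT2, StringTie, Trimmomatic, FastQC and DESeq2, with no versions, and the builds GRCm38 and mm10. The counting program, strand setting and annotation release were each not given in the sources used here. The authors deposited 1 table of raw read counts per gene, and all 20 count columns matched 1 library title each. Chi-square per degree of freedom between replicates of the same group was 27.1 to 1816 over 40 pairs. No library was therefore a re-sequenced copy of another in its group. Pairs across groups were not compared.

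Counts were tested in edgeR 4.0.16 (R 4.3.3; robust quasi-likelihood, TMM factors 0.382 to 1.40, filterByExpr by group) with 16 residual degrees of freedom and a common coefficient of variation of 0.374, and the procedure was tested on simulated data. RPKM used GENCODE vM21 exon lengths. For likeness, log2 CPM had a prior count of 2, and the ratios a pseudocount of 0.5 counts. Of each companion list, at most 4 called genes with the smallest p per comparison were eligible to be named, and Slc2a3, Slc2a6, Crtc2 and, for 15 mg/kg against cisplatin, Hnf4a were named after their values were seen. The values of 1 listed gene are not reported here. The members, lists and rules were chosen with earlier results of these data known, and list counts without doubtful libraries were added after seeing the data. Alternatives were DESeq2 1.42.0, limma 3.58.1 voom, other scalings and filters, a replicate block and left-out libraries. The p-values set a difference between groups against the spread between these mice, whose sharing of a cage or a day is not known.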

Additional observations from a re-analysis of the deposited data

Results flagged for a closer look

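Of 36 sets of 5 values (9 members in 4 groups), 4 had 1 library whose gap to the next was above 0.71 of the group's range, and chance alone gives this in about 1 set of 20. Slc5a2 stood at 158 CPM in cisplatin replicate 10, with 31.7 CPM in the next library of its group. Slc2a1 stood at 144 CPM in 15 mg/kg replicate 5, with 81.6 CPM in the next. G6pc stood at 70.7 CPM in cisplatin replicate 10, with 42.1 CPM in the next. Slc37a4 was lowest in cisplatin replicate 9, at 35.9 CPM, with 124 CPM in the next. Both cisplatin libraries named here were those with the highest share of mitochondrial mRNA, at 77.7% in replicate 9 and 70.6% in replicate 10, and summed neutrophil markers were 13.0 and 43.4 CPM in them. The part of either in these values was not tested.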

How the results depend on the processing

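Over 31 alternatives, Fbp1 and Pcx for 15 mg/kg against cisplatin and against control, and Fbp1, G6pc and Pck1 for 30 mg/kg against control kept their calls in all. The number of members called ran from 0 to 1 for cisplatin against control, from 3 to 7 for 15 mg/kg and from 0 to 7 for 30 mg/kg against cisplatin, from 2 to 7 for 15 mg/kg, from 4 to 8 for 30 mg/kg against control, and was 0 between the doses. With 1 library left out it was 3 to 6 for 15 mg/kg against cisplatin. All genes called numbered 17 to 2700 (main 1994) for cisplatin against control, 1329 to 6195 (5578) for 15 mg/kg and 310 to 4870 (4148) for 30 mg/kg against cisplatin, 3102 to 7669 (6709) for 15 mg/kg and 2051 to 6067 (5088) for 30 mg/kg against control, and 0 to 2 (0) between the doses. Without cisplatin replicates 9 and 10, without control replicates 2 and 5 and without the 4 libraries high in adipose markers, 0 members were called for cisplatin against control, and without those 4 libraries 2 for 15 mg/kg against control. Of 15 pairs of mice with the same replicate number in their titles, 3 had a correlation of deviations above 0.1 (-0.31 to 0.23). These values cannot settle whether the numbers pair the mice, as few of the pairs hold a cisplatin library. Cisplatin replicates 9 and 10 share their number with no other library, and cisplatin and control share only number 2. The part of this layout in the calls lost with a replicate block was not tested. With the replicate block, 0 members were called for cisplatin against control (17 genes of all), 3 for 15 mg/kg against cisplatin and 0 for 30 mg/kg against cisplatin, and between the doses Slc5a1 was -0.022 and Slc2a2 -0.039. Reversals of sign concerned values that were not called. For Slc5a1 in cisplatin against control, DESeq2 gave -0.017, voom -0.00066, DESeq2 size factors -0.016, library totals -0.102, no filter -0.0013, mitochondrial mRNAs left out -0.025, the 2 groups alone -0.024, without control replicates 2 and 5 -0.248 and without the 4 libraries -0.256. Also for cisplatin against control, library totals gave G6pc -0.108, Fbp1 -0.277 and Slc37a4 -0.074, leaving out control replicates 2 and 5 gave Fbp1 -0.204 and Slc37a4 -0.166, leaving out the 4 libraries gave G6pc -0.0014, Fbp1 -0.208 and Slc37a4 -0.172, and leaving out cisplatin replicates 9 and 10 gave Fbp1 -0.076. Library totals moved the median of all genes by -0.34 there, and by 0.29 for 15 mg/kg and 0.38 for 30 mg/kg against cisplatin. Pck1 for 30 mg/kg against cisplatin was 0.569 with library totals and 0.377 without cisplatin replicates 9 and 10. Slc2a1 against control was -0.031 (library totals) and -0.068 (without the 4 libraries) at 15 mg/kg, and at 30 mg/kg -0.083 (DESeq2 and its size factors), -0.063 (mitochondrial mRNAs left out), -0.042 (without cisplatin replicates 9 and 10), -0.062 (without the 4 libraries) and -0.061 (the 2 groups alone). For 30 mg/kg against 15 mg/kg, library totals gave Slc2a1 0.042 and Fbp1 0.081, and leaving out the 4 libraries gave Slc2a1 0.0057, Fbp1 0.169, Pcx 0.011 and Slc37a4 0.065. With 1 library left out at a time, cisplatin against control ran from -0.200 to 0.230 for Slc5a1, -1.33 to 0.286 for Slc5a2, -0.108 to 0.411 for Fbp1 and -0.042 to 0.321 for Slc37a4. Pck1 for 30 mg/kg against cisplatin ran from -0.166 to 0.146, Slc2a1 against control from -0.130 to 0.178 (15 mg/kg) and -0.124 to 0.109 (30 mg/kg), and between the doses Slc2a1 from -0.226 to 0.138 and Fbp1 from -0.221 to 0.074. The ratio of Slc2a1 to Slc2a2 ran from -1.89 to -1.13 for 15 mg/kg and from -2.14 to -1.38 for 30 mg/kg against cisplatin, and that of Slc5a1 to Slc5a2 from -0.407 to 0.067 between the doses. The cause of these changes was not tested.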
